A study of Mus musculus with 21 samples.

Results

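The 8 MPP2 libraries of a mouse bone marrow series fell into 2 sets by the number that opens their titles. MPP2 are multipotent progenitors of bone marrow, sorted here as lineage-negative cells by Sca-1, cKit, CD150 and CD48. Of the 21 libraries of the series, 4 MPP2 libraries carried a title number under 100 (wild type, WT, 53 and 60; Phf6 knockout, KO, 56 and 63), called low-numbered here, and 4 carried a number over 100 (WT 163 and 208; KO 166 and 211), called high-numbered. Each set held 2 WT and 2 KO libraries, so genotype was balanced between them. The labels do not say what the numbers stand for. The split was chosen because Flt3 and genes of lymphoid priming already stood apart between these libraries, so the MPP2 values of high against low are a description. No p-value is given for an MPP2 gene or measure in that contrast, and the test's threshold is used there only to count genes. The 8 MPP3 libraries split at the same number (low WT 52 and 59, KO 55 and 62; high WT 162 and 207, KO 165 and 210), on which the split was not chosen, were tested. Long-term haematopoietic stem cells (LT-HSC) gave 4 low-numbered libraries and 1 high-numbered library.

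All mice were C57BL/6 and 12 weeks old, and all libraries came from 100 to 200 sorted cells. Every group thus shared the strain, the age and this range of cell number. The labels do not say whether the low- and high-numbered sets were sorted together. The series took its cells from 4 pairs of WT and KO mice, and the KO allele, with any Cre that made it, is not given in the sources used here. Phf6, the targeted gene, which encodes a chromatin-associated protein of the nucleus, had 190 to 335 counts in the KO and 1862 to 5204 in the WT MPP2 libraries.

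Blood progenitors begin to transcribe genes of several lineages at low level before they commit, which is called lineage priming. MPP2 are held to lean towards megakaryocytes and erythroid cells, and MPP3 towards granulocytes and monocytes. A further progenitor, MPP4, is defined by the receptor Flt3 on its surface, expresses Dntt and is primed for lymphoid fates. The sort had no stain for Flt3. Flt3 encodes the receptor for the cytokine Flt3 ligand, Dntt the template-independent DNA polymerase that adds bases at the joints of antigen receptor genes, Gata1 the zinc finger factor that drives erythroid and megakaryocyte genes, and Epor the erythropoietin receptor.

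The promoters of these 4 marker genes are shown because the results turn on them, from 250 bases before to 50 after the start of the RefSeq gene model on GRCm38.p6, the build that the submitters' processing notes name as mm10. Flt3 lies at chr5:147400440-147400739 on the minus strand, Dntt at chr19:41029025-41029324 on the plus strand, Gata1 at chrX:7967861-7968160 on the minus strand and Epor at chr9:21963527-21963826 on the minus strand. Each is printed 5′ to 3′ along the gene, and capitals mark every match, on either strand, to AGATAA (bound by GATA factors), CACCC (bound by KLF factors) or CANNTG (the E-box).
Flt3: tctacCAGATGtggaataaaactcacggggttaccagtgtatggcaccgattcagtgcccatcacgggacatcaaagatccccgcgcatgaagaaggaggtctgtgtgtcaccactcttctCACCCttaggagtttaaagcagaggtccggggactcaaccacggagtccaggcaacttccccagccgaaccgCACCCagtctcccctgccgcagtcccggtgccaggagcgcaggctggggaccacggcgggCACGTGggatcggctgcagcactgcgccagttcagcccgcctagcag
Dntt: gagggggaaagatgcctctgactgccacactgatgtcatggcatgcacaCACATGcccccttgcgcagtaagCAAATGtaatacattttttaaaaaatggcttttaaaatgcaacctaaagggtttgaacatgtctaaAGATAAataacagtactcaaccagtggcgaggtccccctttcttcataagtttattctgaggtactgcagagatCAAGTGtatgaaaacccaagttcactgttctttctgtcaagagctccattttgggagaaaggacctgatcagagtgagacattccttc
Gata1: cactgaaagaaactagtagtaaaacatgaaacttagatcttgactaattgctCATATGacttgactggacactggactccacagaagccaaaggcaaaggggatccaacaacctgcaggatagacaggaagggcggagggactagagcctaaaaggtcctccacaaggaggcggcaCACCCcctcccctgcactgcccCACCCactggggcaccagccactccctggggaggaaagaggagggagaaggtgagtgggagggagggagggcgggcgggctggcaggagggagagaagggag
Epor: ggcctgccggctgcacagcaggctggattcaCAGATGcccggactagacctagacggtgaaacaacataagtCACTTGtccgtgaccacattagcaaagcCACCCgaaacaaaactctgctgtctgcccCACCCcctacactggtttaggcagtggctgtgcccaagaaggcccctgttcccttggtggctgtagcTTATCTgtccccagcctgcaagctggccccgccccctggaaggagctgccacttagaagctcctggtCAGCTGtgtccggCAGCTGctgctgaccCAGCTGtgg
The window of Epor held 1 GATA match, 2 KLF matches and 5 E-boxes, and that of Gata1 held 0, 2 and 1. Flt3 had 0 GATA matches, 2 KLF matches and 2 E-boxes, and Dntt had 1, 0 and 3. Over 32851 RefSeq promoters of the same length, 11.2% held the GATA letters, 57.5% the KLF letters and 72.3% an E-box. KLF and E-box matches are thus common, and a GATA match is less so. The short KLF and E-box letters did not overlap in these windows.

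The total counts of the MPP2 libraries were 24063679 to 31611366, with overlap between the sets, and across the series they were 18892723 to 31611366. Other measures of library make-up moved with the sets in both gates. Low-numbered MPP2 libraries had more genes with a count, 22394 to 25422 against 20260 to 22103, and more of their counts in mitochondrially encoded genes, 3.07% to 5.96% against 1.90% to 3.02%. The sets overlapped in neither. In MPP3 the mitochondrial share was 3.02% to 12.8% in low-numbered and 2.14% to 2.75% in high-numbered libraries (exact two-sided permutation p = 0.0286, the smallest that 4 against 4 can give, and 0.0762 adjusted over 8 measures), and genes with a count 21692 to 28501 and 21369 to 21906 (exact p = 0.0857, adjusted 0.171). Libraries 59 to 64 came from males by their Xist and Ddx3y counts and all others from females, so that 1 mouse of each genotype in the low-numbered set and 0 in the high-numbered set were male. In all, 3 libraries stood apart: KO MPP2 56 and KO MPP3 55 had 45.8% and 25.8% of their counts in immunoglobulin genes, and KO MPP3 62 had 10.3% in ribosomal RNA genes.

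**Figure D1:**
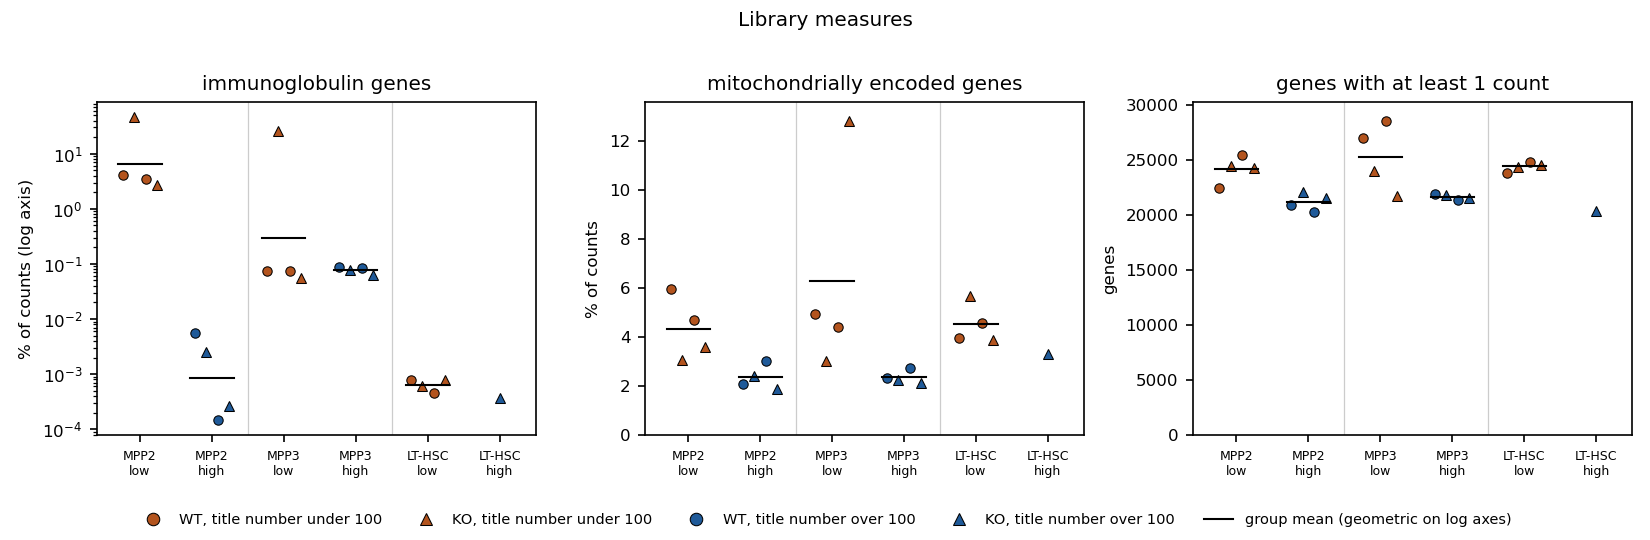
Library measures by population and set, 1 point a library: share of counts in immunoglobulin genes (log axis), share in mitochondrially encoded genes and number of genes with at least 1 count (linear axes from 0). The 4 low-numbered MPP2 libraries lie above the 4 high-numbered ones in all 3 measures, and in MPP3 the mitochondrial share shows the same order.

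The lymphoid markers were high in every low-numbered MPP2 library and low in every high-numbered one. Levels are given as CPM, counts scaled to a common library size and normalised, in the order WT 53, WT 60, KO 56, KO 63 for low and WT 163, WT 208, KO 166, KO 211 for high. Flt3 was at 299, 589, 127 and 314 CPM in the low-numbered and 41.1, 7.01, 14.8 and 4.83 CPM in the high-numbered MPP2 libraries. The lowest low-numbered library lay over the highest high-numbered one, and the fitted log2 fold change of high over low was -4.36 ± 0.55 (SE; -4.21 in WT and -4.52 in KO). Dntt was at 528, 915, 38.8 and 229.9 CPM in the low-numbered libraries, lowest in KO 56, and at 11.9, 0, 1.79 and 0 CPM in the high-numbered ones, a log2 fold change of -7.08 ± 1.39. In MPP3 both genes were high on both sides: Flt3 at 655 to 1171 CPM in low-numbered and 726 to 1269 CPM in high-numbered libraries, and Dntt at 568 to 1188 and 788 to 1444 CPM. Neither differed in MPP3 beyond the spread of the libraries (Flt3 log2 difference 0.06, exact two-sided permutation p = 0.857; Dntt 0.21, exact p = 0.571; adjusted over the 4 markers 0.857 and 0.762). In LT-HSC Flt3 was at 14.6 to 88.3 CPM in the low-numbered libraries and 9.73 CPM in KO LT-HSC 212.

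The erythroid markers went the other way with more overlap. Gata1 was at 63.0, 41.2, 48.8 and 149 CPM in the low-numbered and 385, 295, 339 and 383 CPM in the high-numbered MPP2 libraries. These levels did not overlap, though KO 63 stood over the other low-numbered libraries, and the log2 fold change was 2.27 ± 0.91. Epor was at 19.3, 12.9, 22.5 and 57.6 CPM in the low-numbered and 70.3, 40.9, 90.4 and 99.1 CPM in the high-numbered libraries, where KO 63 exceeded WT 208, and its log2 fold change was 1.49 ± 0.96. Neither of these 2 genes passed the threshold used throughout, a Benjamini-Hochberg adjusted p of 0.05 in edgeR's quasi-likelihood test over all 17604 genes, while Flt3 and Dntt did; genes past it are called. In MPP3 Gata1 was at 1.39, 0.0705, 1.24 and 0.462 CPM in low-numbered WT 52, WT 59, KO 55 and KO 62, and at 3.90, 3.06, 42.4 and 0.751 CPM in high-numbered WT 162, WT 207, KO 165 and KO 210. Only KO MPP3 165 of these 8 libraries lay over 10 CPM, and it also held Epor at 11.8, Klf1, an erythroid transcription factor, at 52.9 and Car1, a carbonic anhydrase of erythroid cells, at 578 CPM. The exact permutation p for the sets in MPP3 was 0.0857 for Gata1 and 0.343 for Epor (adjusted 0.343 and 0.686).

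**Figure D2:**
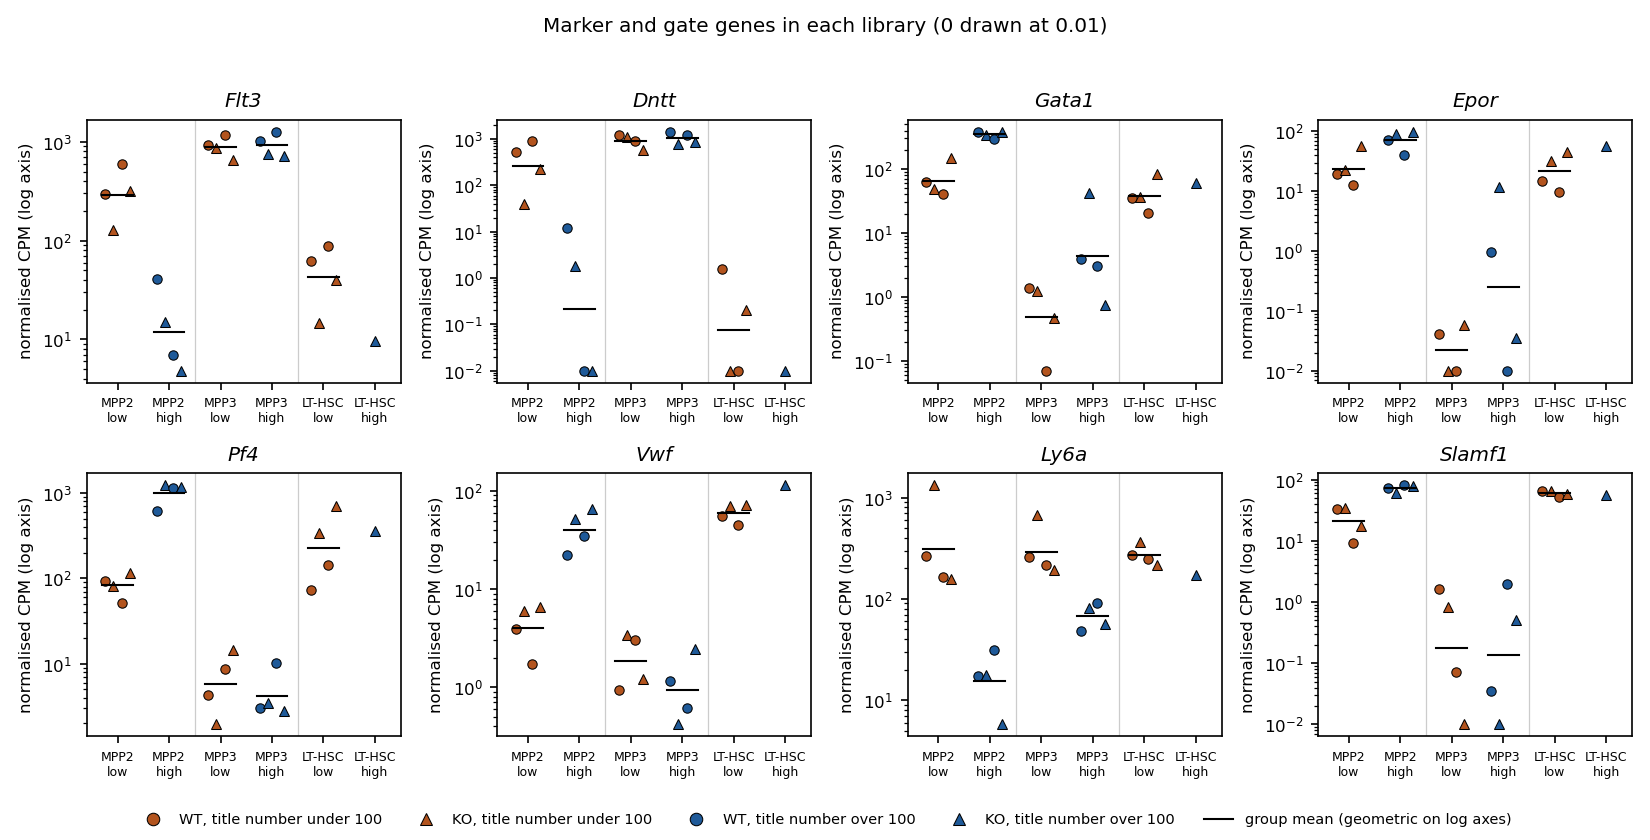
Normalised CPM (log axis) of the 4 markers, the platelet genes Pf4 and Vwf and the gate genes Ly6a and Slamf1, 1 point a library, by population and set; bars are geometric means. Flt3 and Dntt part the MPP2 sets but not the MPP3 sets, and Ly6a is lower in high-numbered libraries of both gates.

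Over all genes, 1197 of 17604 (6.8%) were called between the MPP2 sets, 349 higher (1.98%) and 848 lower (4.82%) in the high-numbered libraries, with 22.8% at an unadjusted p under 0.05, and 2582 (14.7%) did not overlap between the sets, 6.99% higher and 7.67% lower. Since the sets were chosen on this contrast, these shares are read only as the background for the counts that follow. The count depended on single libraries: it was 404 without KO 211, 536 without KO 56, 570 without WT 53, 673 without KO 166, 742 without WT 208 and 770 without WT 60, and 121 without all libraries of 207 to 212. Without KO 56, which stood apart, 12 lymphoid, 6 granulocyte-monocyte, 8 cytokine receptor, 4 dendritic cell, 3 interferon and 2 B-lineage genes were called lower and 7 megakaryocyte genes higher, of the lists described next. Without 207 to 212, 7 lymphoid and 2 granulocyte-monocyte genes were called lower and 1 megakaryocyte gene higher, while their medians were -2.67, -1.08 and 1.54. Without 162 to 166 the called genes of these 3 lists numbered 11, 11 and 8. In bulk libraries, fewer cells of a type and less RNA of a gene in each cell cannot be told apart.

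Genes of lymphoid priming were lower in the high-numbered MPP2 libraries. Of 25 tested, 15 were called lower and 0 higher, against 4.82% lower over all genes, with a median log2 fold change of -2.84 against -0.05 over all genes. Il7r, the receptor chain for interleukin 7, was at 34.3, 41.1, 17.2 and 7.35 CPM in the low-numbered libraries and had 0 counts in all 4 high-numbered ones against 2333 counts, at least 939-fold lower with a floor of 3 counts over the 4 libraries. Satb1, a chromatin organiser of lymphoid cells, was at 123, 154, 22.3 and 68.6 CPM in low-numbered and 12.9, 19.7, 12.5 and 10.3 CPM in high-numbered libraries (-2.56 ± 0.32). KO 56 was the lowest of its set for Satb1 and lay nearest to the high-numbered libraries. Rag2, of the recombinase that joins antigen receptor segments, was at 28.6, 23.2, 3.71 and 11.4 CPM and 1.92, 0, 0.394 and 0 CPM (-4.99 ± 0.95). Notch1, the receptor that starts T-cell fate, was at 10.7, 8.87, 3.05 and 6.38 CPM and 0.495, 1.01, 0.644 and 0.965 CPM (-3.15 ± 0.38). Smaller shifts were seen for the T-cell signalling gene Tespa1, 109 to 157 against 37.1 to 52.1 CPM (-1.61 ± 0.16), and the co-receptor Cd27, 84.9 to 175 against 40.3 to 81.1 CPM (-1.20 ± 0.15). Of the 15, 4 genes, Ighm, Blnk, Cd52 and Cd53, are ones that B cells and plasma cells or mature leucocytes also express, and for Ighm, Blnk and Cd52 the highest value was in KO 56, the library richest in immunoglobulin. The broad regulators Ikzf1 (-0.38 ± 0.24), Mef2c (0.16 ± 0.14) and Bcl11a (0.17 ± 0.15) were not called. In MPP3, 0 of these 25 genes were called between the sets, with a median of -0.22.

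Granulocyte and monocyte genes were lower as well. Of 25 tested, 8 were called lower and 0 higher, against 4.82% and 1.98% over all genes, with a median of -1.89. Gfi1, a repressor needed for neutrophil fate, was at 20.7, 8.10, 8.75 and 9.41 CPM in low-numbered libraries, and of the high-numbered libraries only KO 166 had counts, at 1.22 CPM. Hk3, a hexokinase of myeloid cells, was at 33.0, 44.6, 25.6 and 28.7 CPM and 5.28, 3.51, 11.6 and 1.79 CPM (-2.61 ± 0.43). Ccl9, a chemokine, was at 42.4 to 183 against 4.15 to 35.3 CPM (-2.29 ± 0.47), Csf3r, the receptor for G-CSF, at 31.6 to 83.3 against 2.28 to 20.7 CPM (-2.25 ± 0.47), and Csf2rb, the common beta chain, at 23.0 to 69.0 against 3.83 to 17.5 CPM (-2.08 ± 0.34). Spi1, which encodes PU.1, was at 137, 132, 102 and 111 CPM and 81.7, 93.1, 57.6 and 56.7 CPM (-0.79 ± 0.19). Granule genes varied within the high-numbered set: myeloperoxidase, Mpo, was at 2307, 1131, 1669 and 2312 CPM in low-numbered and 392, 21.8, 1382 and 32.1 CPM in high-numbered libraries and was not called (-2.30 ± 1.11). KO 166 lay within the low-numbered range for Mpo, while WT 208 and KO 211 were far under it. In MPP3 the list's median was 0.67 with 0 called, opposite in sign to MPP2, and the list took 0.248% to 0.754% of counts in low-numbered and 0.600% to 1.03% in high-numbered MPP3 libraries. Shares held by gene lists are, throughout, of the counts outside immunoglobulin genes.

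Receptors for cytokines were mostly lower in the high-numbered MPP2 libraries. Of 20 tested, 9 were called lower and 0 higher, against 4.82% and 1.98% over all genes (median -1.20). By fitted sign 15 were lower and 5 higher, Epor among the higher. Besides Flt3, Il7r, Csf3r and Csf2rb, which the 2 lists above also hold, the 9 called lower were Il1r1, Il18r1, Il6ra, Il6st and Il2rg, at log2 fold changes of -1.33 to -2.48. Il1r1, the interleukin 1 receptor, was at 31.5, 61.9, 15.8 and 31.7 CPM and 8.02, 9.34, 9.23 and 3.36 CPM. Kit, the receptor for stem cell factor, was at 242 to 274 and 171 to 231 CPM (-0.45 ± 0.24) and was not called.

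Megakaryocyte and platelet genes were higher in the high-numbered MPP2 libraries. Of 24 tested, 11 were called higher and 0 lower, against 1.98% higher over all genes, with a median of 1.85, and 15 had all 4 high-numbered libraries over all 4 low-numbered ones, against 6.99% of all genes. Pf4, platelet factor 4, was at 94.1, 51.9, 81.9 and 115 CPM in low-numbered and 615, 1134, 1232 and 1168 CPM in high-numbered libraries (3.57 ± 0.55). Vwf, von Willebrand factor, which platelet-biased stem cells also express, was at 3.89, 1.71, 5.99 and 6.54 CPM and 22.4, 34.7, 51.6 and 65.5 CPM (3.25 ± 0.58). Itga2b, integrin alpha IIb or CD41, was at 71.3, 62.5, 61.6 and 94.0 CPM and 175, 274, 271 and 428 CPM (1.93 ± 0.31). The platelet glycoproteins Gp5 (2.75 ± 0.45), Gp9 (1.98 ± 0.30) and Gp1ba (2.50 ± 0.67), the tetraspanin Cd9 (1.38 ± 0.21), the thrombin receptor genes F2r (1.76 ± 0.33) and F2rl2 (2.59 ± 0.45), Itgb3 (1.73 ± 0.38) and Treml1 (2.40 ± 0.61) made up the rest. In MPP3 the list's median was -0.39, with 0 of 24 called and Pf4 at 1.94 to 14.5 CPM in low-numbered and 2.82 to 10.3 CPM in high-numbered libraries.

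Transcription regulators of the megakaryocyte and erythroid branch were mostly higher in the high-numbered MPP2 libraries, with calls in both directions. Of 18 tested, 15 were fitted higher, against 8273 of 17604 over all genes (median 0.57, and -0.36 in MPP3 with 0 called). All high-numbered libraries lay over all low-numbered ones for 9 and under them for 3, against 6.99% and 7.67% of all genes. The list took 0.198% to 0.258% of counts in low-numbered and 0.377% to 0.442% in high-numbered libraries. Genes called higher numbered 4 (1.98% over all genes), among them Gata2, Gfi1b and Nfe2, and 2 were called lower (4.82% over all genes), Lyl1 and Ikzf3. Gata2, a factor of early progenitors, was at 169, 123, 182 and 139 CPM and 348, 439.8, 305 and 517 CPM (1.36 ± 0.23). Gfi1b, a repressor needed for both lineages, was at 89.6, 46.2, 52.7 and 136 CPM and 305, 263, 303 and 365 CPM (1.92 ± 0.35). Ikzf3 rested on KO 56, with 55.2 CPM against at most 6.30 CPM in the other MPP2 libraries.

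Erythroid genes were not clearly parted between the MPP2 sets. Of 27 tested, 1 was called higher, Nfe2, and 1 lower, the mitochondrial iron importer Slc25a37, with a median of 0.58. All high-numbered libraries lay over all low-numbered ones for 6 and under them for 0, against 6.99% and 7.67% of all genes. Klf1 was at 49.5, 25.6, 29.8 and 159 CPM and 228, 179.9, 254 and 229 CPM (1.88 ± 0.98), with no overlap but KO 63 well over the other low-numbered libraries. Car1 was at 548, 611, 762 and 1441 CPM and 2927, 1635, 2124 and 2124 CPM (1.44 ± 1.62). KO 63 was also highest of its set for Ermap, an erythroid membrane protein, at 80.0 CPM, and its erythroid genes together took 0.676% of counts against 0.334% to 0.390% in the other 3 low-numbered libraries and 0.619% to 0.894% in the high-numbered ones. In MPP3 the erythroid list had a median of 1.61, which was 0.18 without KO MPP3 165, with 0 genes called in either case. Adult globin genes were low throughout, Hba-a1 at most 2.67 and Hbb-bt at most 24.4 CPM. Of 19 genes of haem synthesis and iron handling, Alad, which makes porphobilinogen, was called higher (0.81 ± 0.22) and Slc25a37 lower (-0.83 ± 0.22).

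Stem cell genes were spread in both directions. Of 32 tested, Vwf was called higher and 5 were called lower: Hlf, Mecom, Fgd5, Hoxa9 and Ly6a. Over all genes 1.98% were called higher and 4.82% lower. Hlf, a transcription factor of stem cells, was at 142, 131, 82.8 and 80.2 CPM and 46.4, 18.6, 24.8 and 13.2 CPM (-2.11 ± 0.38), and in high-numbered MPP3 it was also lower, 82.3 to 118 against 147 to 573 CPM (-1.37 ± 0.37, not called). Hoxa9, a homeobox factor of immature cells, was at 114, 116, 60.1 and 52.9 CPM and 52.1, 59.8, 25.6 and 28.0 CPM (-1.09 ± 0.18), where WT 208 at 59.8 exceeded KO 63. The stem cell list held 0.263% to 0.398% of counts in low-numbered and 0.264% to 0.400% in high-numbered MPP2 libraries, against 0.704% to 0.867% in the low-numbered LT-HSC.

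The genes of the sort's own surface markers did not all move alike. Ly6a, which encodes Sca-1, was at 263, 166, 1326 and 158 CPM in low-numbered and 17.4, 31.6, 17.6 and 5.76 CPM in high-numbered MPP2 libraries (-4.61 ± 0.71, called). KO 56 was the highest, and the other 3 low-numbered libraries also lay over every high-numbered one. In MPP3 Ly6a was at 259, 217, 666 and 193 CPM in low-numbered and 48.5, 90.5, 81.5 and 56.5 CPM in high-numbered libraries, again with no overlap (-2.23 ± 0.64, edgeR adjusted p = 0.131). The low-numbered LT-HSC had 214 to 362 CPM and KO LT-HSC 212 171 CPM. Slamf1, which encodes CD150, was at 33.6, 9.16, 34.3 and 17.7 CPM and 73.4, 80.7, 60.1 and 78.3 CPM (1.59 ± 0.97, not called, no overlap), and at most 2.0 CPM in MPP3. Cd48 was at 515, 457, 499 and 459 CPM and 232, 405, 166 and 219.8 CPM (-0.99 ± 0.29, not called). Cd34, a sialomucin used to part progenitors from stem cells and not in the stain, was at 828, 1132, 469 and 698 CPM and 272, 176, 172 and 123 CPM (-2.08 ± 0.20), and at 749 to 1490.1 CPM in MPP3.

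Immunoglobulin transcripts parted the MPP2 sets widely. They took 4.08%, 3.52%, 45.8% and 2.67% of counts in WT 53, WT 60, KO 56 and KO 63 and at most 0.00561% in the high-numbered libraries. Jchain, the joining chain of secreted antibody, was at 9974, 2781, 40955 and 1036 CPM in low-numbered and 0, 0, 0.250 and 0.894 CPM in high-numbered libraries. Mzb1, a chaperone of antibody secretion, had 8269 counts against 0 and was at least 3329-fold lower with the libraries of each set pooled. Tnfrsf17, the plasma cell receptor BCMA, had 3482 against 0 and was at least 1402-fold lower. KO 56 alone held 3986 of the Mzb1 counts and 2713 of the Tnfrsf17 counts. Tnfrsf17 was at 163 CPM there and at 5.09 to 13.6 CPM in the other low-numbered libraries. Of 12 B-lineage genes tested, 6 were called lower, against 4.82% over all genes (median -10.1), while Cd79b was at 59.0 to 267 and 37.6 to 63.3 CPM and was not called. In MPP3 the immunoglobulin share was 0.0560% to 0.0865% in the other 7 libraries and 25.8% in KO 55, and Jchain was at most 2.36 CPM outside KO 55. With immunoglobulin genes left out, 1201 genes were called between the MPP2 sets, 1142 of them shared with the 1197. Without KO 56, KO MPP3 55 and KO MPP3 62, and with an additive genotype term, 1154 were called, 854 of them shared with the 1197. The other 3 low-numbered MPP2 libraries still held 2.67% to 4.08% immunoglobulin counts in that fit, and the part of B-lineage or plasma cells in the differences that remained was not tested.

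Genes of antigen presentation and of plasmacytoid dendritic cells moved with them in part. Of 10 tested, 6 were called lower (4.82% over all genes), Tcf4, Runx2, Itgax, H2-Aa, H2-Ab1 and Cd74, with a median of -2.55 when genes at 0 are set at their bound. H2-Aa, an MHC class II chain, was at 166, 38.2, 39.8 and 94.6 CPM and 6.37, 7.14, 7.66 and 1.36 CPM, and in MPP3 at 127, 40.4, 63.7 and 97.8 CPM and 7.45, 12.4, 31.3 and 33.2 CPM (-2.21 ± 0.57, not called). Cd74, the class II invariant chain, was at 503, 163, 5069.7 and 226 CPM and 1.12, 1.35, 2.33 and 0.0358 CPM in MPP2, and at 55.0 to 1972 against 3.87 to 20.7 CPM in MPP3 without overlap. Siglech, which marks plasmacytoid dendritic cells, was at most 0.525 CPM in MPP2.

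Markers of other cells were mostly carried by single libraries. KO 56 stood far over the other MPP2 libraries for mast cell proteases, Cma1 at 265 and Tpsb2 at 408 CPM, and for neutrophil granule genes, S100a8 at 5613 and Ngp at 3151 CPM. The neutrophil list took 1.47% of the counts of KO 56 outside immunoglobulin genes. The neutrophil list was at most 0.0399% in the other 7 MPP2 libraries. Of the 13 neutrophil genes tested only the deiminase gene Padi4 was called, 13.5 to 39.8 against 2.54 to 12.8 CPM (-2.29 ± 0.29). Of 6 T and NK cell genes tested, Lck, the T-cell kinase that early lymphoid progenitors also carry (-2.07 ± 0.40), and Klrd1, with 0 counts in the high-numbered libraries, were called lower, and Cd3e and Cd8a were at most 0.719 CPM in MPP2. Among mast cell genes Fcer1g was called lower and Gata2 higher, and among 11 macrophage genes Cd68 lower. Of 10 stromal and endothelial genes, 0 were called.

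Genes of the interferon response were lower in the high-numbered MPP2 libraries, with 6 of 22 called lower and 0 higher, against 4.82% and 1.98% over all genes (median -0.81). Irf1, an interferon-induced factor, was at 134, 111, 128 and 101 CPM and 78.2, 53.8, 51.3 and 35.0 CPM (-1.18 ± 0.18). Mx1, an antiviral GTPase, had 434 counts in the low-numbered and 1 count in the high-numbered set, a ratio of 524 (95% counting interval 93.6 to 20753). Trim30a, Oas2, Oasl2 and Ifi44 were the others, at log2 fold changes of -0.99 to -1.48. In MPP3, 20 of the 22 interferon genes were also fitted lower, against 9359 of 17604 over all genes, with a median of -0.23 and 0 called. Stress-response genes had Fos and Btg2 called lower of 20 (4.82% over all genes). Of the 20, 16 were fitted lower, against 9331 of 17604 over all genes, with a median of -0.79. In MPP3, 16 of these 20 were fitted lower as well, with a median of -0.60 and 0 called. Of 37 cell cycle genes 0 were called, with a median of 0.06 and 0.568% to 1.05% of counts in low-numbered against 0.740% to 0.971% in high-numbered libraries.

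Among all genes, those of largest fold change that were higher in high-numbered MPP2 included, besides Pf4 and Vwf, the phosphodiesterase Pde10a (4.15 ± 0.71), the kinase Dapk3 (3.87 ± 0.51), the tetraspanin Tspan33 (3.48 ± 0.70), the mRNA export factor Alyref (3.41 ± 0.32), the ARF regulator Smap1 (2.82 ± 0.25) and the deubiquitinase Otulin (2.81 ± 0.39). Those lower were chiefly genes of the B lineage, with Il7r and Gpr18, a receptor of lymphocytes, beside them. Dapk3, Alyref, Smap1 and Otulin were also called in MPP3, and Pde10a (-0.83 ± 1.12 in MPP3) was not.

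The same split called 32 of 17604 genes in MPP3 (0.182%), 16 higher and 16 lower (0.0909% each), with 3290 (18.7%) at an unadjusted p under 0.05 and 2325 (13.2%) without overlap, 7.11% higher and 6.1% lower. Srsf2, a splicing factor, was at 164, 178, 142 and 128 CPM in low-numbered and 536, 473, 599 and 617 CPM in high-numbered MPP3 libraries (log2 fold change 1.85 ± 0.15, edgeR adjusted p = 5.4e-04). It was at 165, 218, 131 and 158 CPM and 693, 488, 706 and 685 CPM in MPP2 (1.92 ± 0.15). In LT-HSC it was at 117 to 215 CPM in low-numbered libraries and 468 CPM in KO LT-HSC 212. Rac1, a small GTPase of the cytoskeleton, differed by 2.46 ± 0.22 in MPP3 (edgeR adjusted p = 5.7e-04) and 2.64 ± 0.22 in MPP2. Lamp1, a lysosomal membrane protein, differed by 2.26 ± 0.22 (edgeR adjusted p = 0.00108) and 2.26 ± 0.22, and Alyref by 2.97 ± 0.32 (edgeR adjusted p = 0.00249) and 3.41 ± 0.32. The myeloid factor Cebpb was higher by 2.90 ± 0.48 in high-numbered MPP3 (edgeR adjusted p = 0.0357). Lower in both gates were the factor Mef2a (-1.20 ± 0.21 in MPP3, edgeR adjusted p = 0.0494; -1.20 ± 0.21 in MPP2) and Stxbp4 (-1.14 ± 0.16 in MPP3, edgeR adjusted p = 0.0166; -1.53 ± 0.16 in MPP2). No gene of any of the 19 lists was called in MPP3. The MPP3 count rested on single libraries. It was 4 without WT 52, 6 without WT 162, 7 without WT 207, 10 without KO 165, 11 without WT 59, 14 without KO 210, 67 without the rRNA-rich KO 62 and 2928 without the immunoglobulin-rich KO 55. Without KO 55, then, more genes were called in MPP3 than in MPP2, where the count in the same fit was 1871, so the counts of calls do not rank the gates. In the fit without KO 55, 10.7% of all genes were called higher and 5.3% lower in MPP3, and the list counts that follow are to be read against these shares. Of 25 lymphoid genes Lsp1 was called higher and Ikzf1 and Bcl11a lower, 4 of 25 granulocyte-monocyte genes were called higher (Cst7, Fcgr3, Ms4a3 and Spi1), 0 of 24 megakaryocyte genes were called higher and Plek was called lower, and 8 of 37 cell cycle genes were called higher. In the same fit Flt3 and Dntt were not called in MPP3. Of 32 stem cell genes, Hlf, Hoxa9, Mecom, Mllt3 and Tie1 were called lower in MPP3 there, and Hlf, Hoxa9 and Mecom were among those called lower in MPP2.

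Genes called in both gates numbered 27, 26 of them in the same direction, which is 84.4% of the MPP3 calls and 2.26% of the MPP2 calls. Without KO MPP3 55 they numbered 649, 593 of them in the same direction, which is 22.2% of the MPP3 calls and 34.7% of the MPP2 calls. The 32 MPP3 genes had a median absolute log2 fold change of 1.30 in MPP3 and moved by a median of 1.18 along the same direction in MPP2. The 1197 MPP2 genes had a median absolute change of 1.55 in MPP2 and a median of 0.52 along that direction in MPP3, and 83.3% of them had the same sign in MPP3, against 68.2% of all genes. Genes called higher and lower also differed in make-up. Median transcript length was 2502 bases for genes higher and 3863 for genes lower in high-numbered MPP2 (2767 over all genes tested), and median GC content was 52.7% and 46.3% (48.9% over all). In MPP3 the same medians were 2259 and 6020 bases, and 49.8% and 41.1%. Their part in the differences was not tested.

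**Figure D3:**
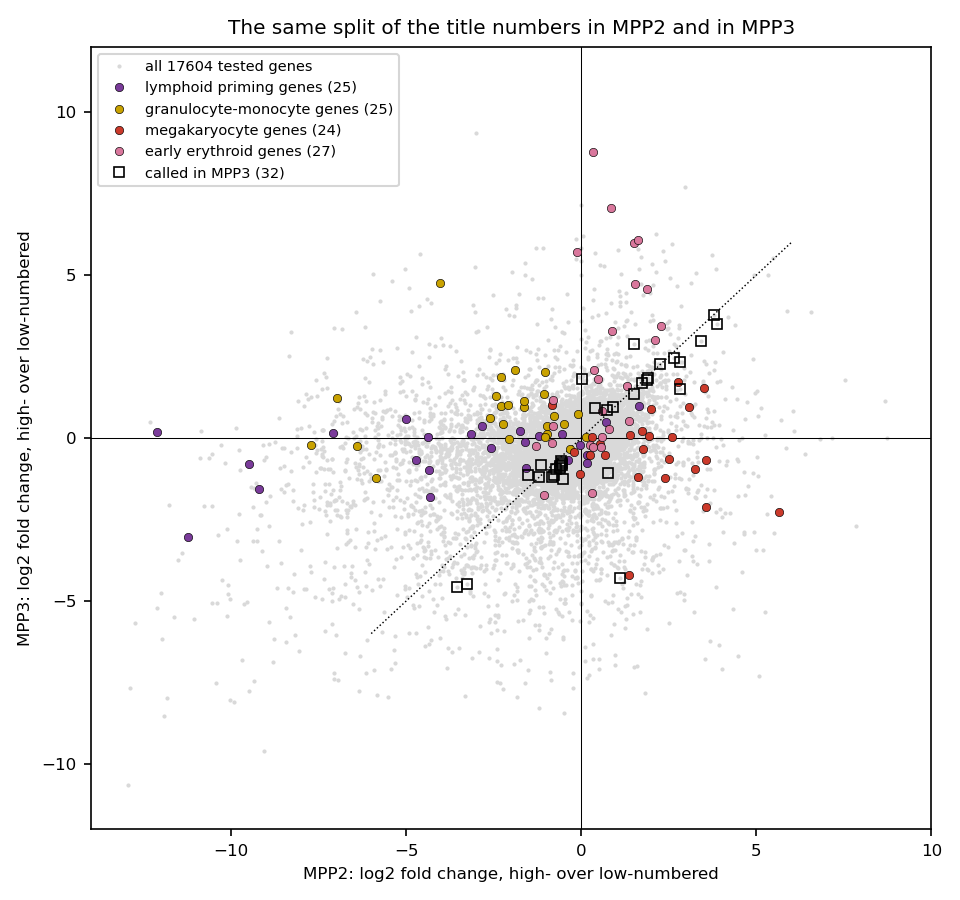
Log2 fold change of high- over low-numbered libraries in MPP2 (x axis) and in MPP3 (y axis) for each tested gene, with 4 lists and the genes called in MPP3 marked; the dotted line is equality. Lymphoid genes stretch to the left and megakaryocyte genes to the right near 0 on the MPP3 axis, while most genes called in MPP3 lie near the dotted line.

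The change from low to high differed between the gates for 94 genes (0.534%; 9.14% at an unadjusted p under 0.05) by the test of MPP2 change minus MPP3 change, 84 with a lower (0.477%) and 10 with a higher difference (0.0568%). The MPP2 side of this test was known, so it is a description. Of the 94, 91 were called in MPP2 and 3 in MPP3. Lymphoid genes made up 8 of the 84 (among them Flt3, Il7r, Satb1, Notch1, Lsp1, Tespa1 and Cd27) and granulocyte-monocyte genes 4 (Gfi1, Spi1, Ccl9 and Hk3). Flt3 had a difference of -4.39 ± 0.71, Satb1 of -2.26 ± 0.43 and Cd34 of -2.35 ± 0.28. The 10 higher included Pf4 (4.24 ± 0.74), Vwf (4.20 ± 0.80) and the semaphorin receptor Plxnc1 (1.84 ± 0.23). In 16 fits that each left out 1 library all of these kept direction, but most calls were lost for some. The call was lost in 12 for Pf4, Satb1 and Ccl9, 13 for Vwf and Gfi1, 14 for Spi1 and 11 for Hk3. It was lost in 4 for Flt3, 3 for Notch1 and Cd27, 1 for Il7r and Tespa1, and 0 for Cd34 and Plxnc1. For 68 of the 84, the mean of low-numbered MPP2 lay over high-numbered MPP2 and under both MPP3 means, and for 9 of the 10 it lay under high-numbered MPP2 and over both MPP3 means. Against the MPP3 library of the same genotype and replicate number, low-numbered MPP2 had 14.8% to 50.3% of its Flt3 level, 39.5% to 59.1% of Tespa1, 38.1% to 68.5% of Cd27 and 46.7% to 93.2% of Cd34. In high-numbered MPP2 the same shares were 0.552% to 4.02%, 13.9% to 21.3%, 16.6% to 28.2% and 9.34% to 19.6%. The low-numbered libraries were less even for other genes: Satb1 stood at 9.94% to 59.4% of the MPP3 level, Lck at 13.2% to 71.2%, Padi4 at 25.1% to 42.4%, Csf3r at 43.0% to 81.9% and Dntt at 3.56% to 103%. Il7r at 28.2% to 436% and Spi1 at 60.6% to 130.0% lay on both sides of the MPP3 level, as Dntt did. The highest shares of Spi1 and Mpo were those taken against the rRNA-rich KO MPP3 62. Mpo at 124% to 899% exceeded the MPP3 level in every low-numbered library. In high-numbered MPP2 these were 5.31% to 6.35% for Satb1, 3.22% to 18.2% for Lck, 3.36% to 15.0% for Padi4, 1.59% to 16.2% for Csf3r, at most 0.825% for Dntt, 0% for Il7r, 20.2% to 37.4% for Spi1 and at most 41.6% for Mpo. Lck was the one gene of these 12 whose shares overlapped between the sets. The count of 94 was 15 without WT MPP3 59, 22 without WT MPP3 52, 34 without WT MPP3 207, 39 without KO MPP3 210, 42 without WT MPP3 162, 50 without WT MPP2 60, 53 without KO MPP2 56 or without KO MPP3 62, 55 without KO MPP3 165, 59 without KO MPP2 211, 153 without WT MPP2 163 and 723 without KO MPP3 55, and 0 without all libraries of 59 to 64.

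Within each set, MPP2 was also compared with MPP3. The sets were chosen on MPP2 values, Flt3 and lymphoid genes above all, so that Flt3 was low in high-numbered MPP2 by that choice, and these comparisons too are a description without p-values. In the high-numbered libraries 1677 genes were called (9.53%; 22.8% at an unadjusted p under 0.05), 614 higher (3.49%) and 1063 lower (6.04%) in MPP2. In the low-numbered libraries 183 were called (1.04%; 15.8% at an unadjusted p under 0.05), 128 higher (0.727%) and 55 lower (0.312%). Of the 183, 153 were also called in the high-numbered set and 180 had the same sign there, and the median absolute log2 fold change over all genes was 0.43 in both sets. Flt3 was lower in MPP2 at -5.90 ± 0.59 (log2) in the high-numbered set (called) and was at -1.51 ± 0.49 in the low-numbered set (not called). Satb1 was called lower in both, at -4.06 ± 0.34 and -1.81 ± 0.31. Gata1 was called higher in MPP2 in both sets, by 5.34 ± 1.05 and 6.50 ± 1.16, and so was Epor, but in the low-numbered set neither was called with each mouse as a block, by limma voom or without the 3 libraries that stood apart. Pf4 was called higher by 7.80 ± 0.67 and 3.56 ± 0.55. Vwf was called higher by 5.16 ± 0.64 in the high-numbered set and was at 0.96 ± 0.55 in the low-numbered set (not called). Of 25 lymphoid genes 16 were lower in MPP2 in the high-numbered and 5 in the low-numbered set, of 25 granulocyte-monocyte genes 11 and 0, and of 24 megakaryocyte genes 20 and 7 were higher. Erythroid genes were higher for 11 of 27 in the high-numbered set, where 2 were lower, and for 9 in the low-numbered set. The low-numbered counts were fragile. With each mouse as a block the 183 calls fell to 34, the 5 lymphoid genes to 1, the 7 megakaryocyte genes to 4 and the 9 erythroid genes to 0, and all 3 lists had 0 by limma voom and without the 3 libraries that stood apart. The erythroid count was 0 without KO MPP3 62, WT MPP3 52 or WT MPP3 59, 1 without WT MPP2 53, 2 without KO MPP2 63 or WT MPP2 60 and 15 without KO MPP3 55. The lymphoid count was 0 without WT MPP2 53, WT MPP3 52 or WT MPP3 59, and the megakaryocyte count 1 without any one of these or KO MPP3 62. Slamf1 was called in the high-numbered set (7.17 ± 1.28) and not in the low-numbered set (5.27 ± 1.19), where it was called with all 21 libraries in the fit, without the low-count filter, by DESeq2 and without KO MPP3 55. The difference between the sets was not called (1.90 ± 1.53). The 183 of the low-numbered set were 5 without WT MPP3 52, 6 without WT MPP3 59, 17 without WT MPP2 53, 19 without KO MPP3 62, 66 without KO MPP2 63, 80 without WT MPP2 60, 99 without KO MPP2 56 and 2821 without KO MPP3 55, so that the counts of the 2 sets are not ranked. The 1677 of the high-numbered set were 1015 without KO MPP2 211, 1020 without WT MPP3 207, 1034 without KO MPP3 210 and 1035 without KO MPP2 166.

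To place the MPP2 libraries against cells outside the gate, 2 lists were taken from LT-HSC against MPP3 in low-numbered libraries, where 1023 of 16399 genes were called: the 100 genes of largest fold change in each direction. The 100 MPP3 genes summed to 7669 to 11687 CPM in low-numbered MPP2 and 1305 to 3345 CPM in high-numbered MPP2, against 8359 to 15166 CPM in MPP3 and 224 to 754 CPM in LT-HSC. Of these genes 58 were called lower and 0 higher in high-numbered MPP2, against 4.82% and 1.98% over all genes (median -2.80, and -0.34 in MPP3). The split was chosen on Flt3 and lymphoid genes, and Flt3 stood far over LT-HSC in MPP3. A drop of such genes was thus in part fixed by that choice, and these values are a description. The 100 LT-HSC genes summed to 1987 to 4290 CPM in low-numbered and 8512 to 9007 CPM in high-numbered MPP2, against 4502 to 6418 CPM in LT-HSC and 243 to 1265 CPM in MPP3. The sum rested on abundant members, since the median member in high-numbered MPP2 was at 3.09 to 3.56 on the log2 CPM scale against 4.34 to 5.18 in LT-HSC and 2.44 to 2.89 in low-numbered MPP2. Of the 96 tested, 9 were called higher and 1 lower, against 1.98% and 4.82% over all genes (median 0.75, and -0.22 in MPP3). The low-numbered LT-HSC and MPP3 sums come from the libraries that picked both lists.

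**Figure D4:**
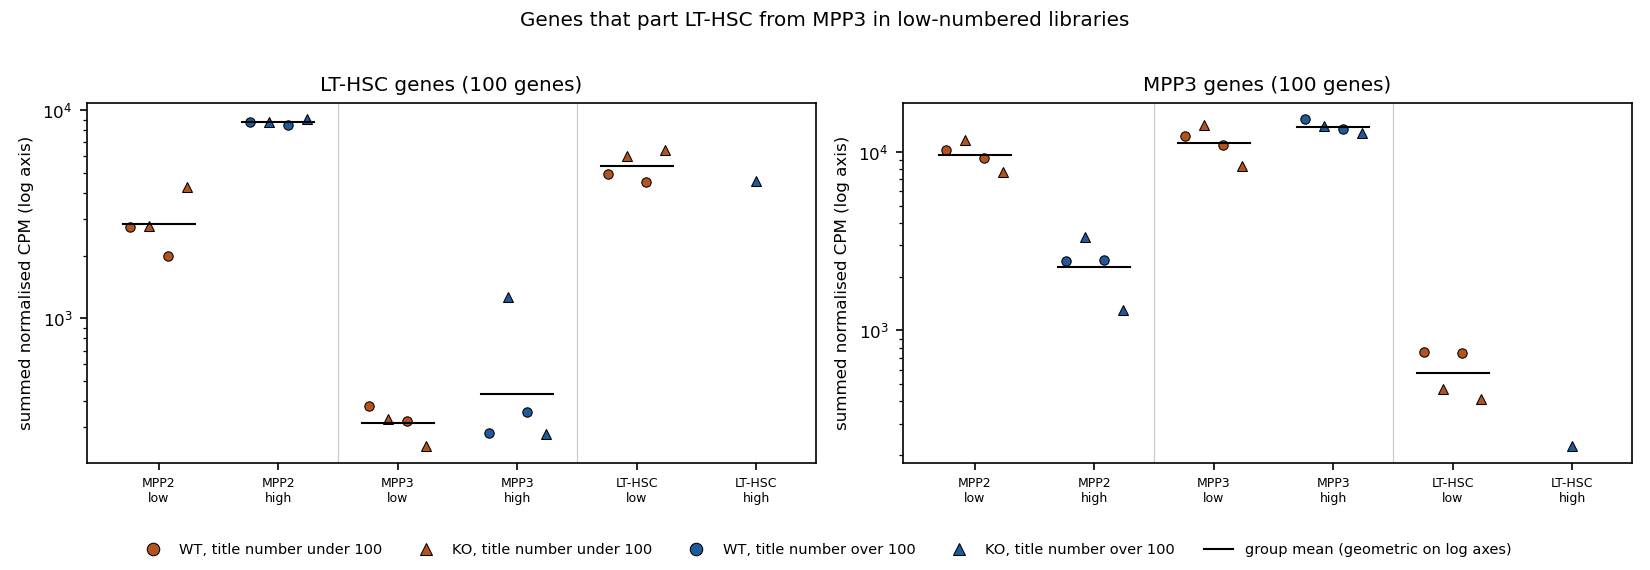
Summed normalised CPM (log axes) of 100 genes higher in LT-HSC and 100 genes higher in MPP3, both chosen in low-numbered libraries, 1 point a library; bars are geometric means. Low-numbered MPP2 libraries lie close to MPP3 for the MPP3 genes, and high-numbered MPP2 libraries lie between MPP3 and LT-HSC for these and over LT-HSC for the LT-HSC genes.

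Knockout was compared with wild type within each set of MPP2. In the low-numbered set 0 genes were called by edgeR, with 809 (4.6%) at an unadjusted p under 0.05 and 26 called by DESeq2. In the high-numbered set 1 was called (0.00568%; 7.05% at an unadjusted p under 0.05; 140 by DESeq2): Sytl1, a synaptotagmin-like protein of vesicle transport, lower in KO at a log2 fold change of -7.13 ± 0.79 (edgeR adjusted p = 0.015), at 4.06, 2.32, 0 and 0.0358 CPM in WT 163, WT 208, KO 166 and KO 211. Sytl1 had 123 and 55 counts in WT 163 and WT 208 and 0 and 1 in KO 166 and KO 211. Its fitted fold change and SE therefore depend on the prior count. The call was lost without KO 166, with the replicate number as a block, without the 3 libraries that stood apart and by limma voom. For a difference of the genotype effect between the sets 0 genes were called by edgeR, with 835 genes (4.74%) at an unadjusted p under 0.05 and 45 called by DESeq2. Flt3 in KO against WT was at -0.98 ± 0.68 in the low-numbered and -1.29 ± 0.70 in the high-numbered set, neither called.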

How the data were processed

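The data are whole-number counts per gene that the authors deposited for 21 libraries of LT-HSC, MPP2 and MPP3 from Phf6 WT and KO mice. Per the labels' protocols, 100 to 200 sorted cells gave each library, made with Nextera XT. The submitters' processing notes name STAR and mm10. Not given in the sources used here were the STAR version, the counting program, its annotation, its use of strand and its handling of reads shared by near-identical genes, so single immunoglobulin, globin and MHC genes are uncertain one by one, and overlapping or antisense genes cannot be told apart. Of 54446 gene identifiers, 54409 matched GENCODE M21 for names, length and GC content.

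Libraries were grouped by population, genotype and title number. edgeR 4.0.16 in R 4.3.3 was fitted on the 16 MPP2 and MPP3 libraries with TMM factors from all 21, filterByExpr at a minimum count of 10 (17604 genes kept), 8 group means, the robust quasi-likelihood test and a Benjamini-Hochberg threshold of 0.05. No correction was made for library make-up. Standard errors are the log2 fold change over the root of F. Levels are TMM-normalised CPM computed from the counts. Shares of gene lists are percentages of the counts outside immunoglobulin genes, which were also left out of the lists for this. Marker levels in MPP3 were tested as log2 (CPM + 1) and MPP3 library measures as they stand, by exact two-sided permutation. The series' design text takes all 3 populations from the same 4 pairs of mice, so MPP2 and MPP3 libraries of 1 genotype and replicate number were taken as 1 mouse, the block of the paired fits. Their deviations from the group means correlated at 0.192 and 0.251 in the low-numbered and 0.0647 and 0.119 in the high-numbered set. No label ties a library to an animal, so p-values measure the spread between these libraries. No 2 libraries held identical counts. Intervals and floors (3 counts) cover counting error only.

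The split, the members, the 19 gene lists and the tests were chosen with earlier results of these data known. Named genes are the 4 markers, the 10 higher and 10 lower of largest fold change among called genes with at least 10 CPM in the higher set and no overlap, and up to 4 of smallest p in each list with 2 of highest level for other cell types. Unnamed predicted genes, immunoglobulin segments and sex-linked marker genes were passed over. Other genes were named after their values were seen, and some genes that the rule or a count includes are not reported here. Alternatives were no filter, other size factors (RLE), all 21 libraries in the fit, DESeq2 1.42.0, limma 3.58.1 with voom weights, an additive genotype term, replicate blocks and leaving out libraries. Those without immunoglobulin genes or without the 3 rich libraries, and the list counts under each alternative, were chosen after seeing the data. The test was checked on simulated counts with the same spread for all genes and no library that stood apart. That check cannot speak to how single libraries moved the counts of calls.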

Additional observations from a re-analysis of the deposited data

Results flagged for a closer look

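Of 128 groups of 4 libraries examined, 16 held a library far from the other 3, and chance gives about 1 in 20. KO MPP2 56 stood apart in immunoglobulin (45.8% of counts), neutrophil genes (1.47%), dendritic cell genes (0.644%), the 4 gate genes (0.208%) and Ly6a (1326 CPM). Shares of gene lists are here too of the counts outside immunoglobulin genes. KO MPP3 55, of the same genotype and replicate number, stood apart in immunoglobulin (25.8%), B-lineage genes without immunoglobulin (1.38%) and Ly6a (666 CPM). KO MPP3 62 stood apart in ribosomal RNA (10.3%) and in macrophage genes, which were low there (0.00232%). KO MPP3 165 was the only high-numbered MPP3 library with Gata1 at 42.4 and Epor at 11.8 CPM, and KO MPP2 63 held the most erythroid transcripts of the low-numbered MPP2 (0.676%). The others were WT MPP2 163 in Dntt (11.9 CPM), WT MPP3 207 in megakaryocyte-erythroid regulators (0.293%) and WT MPP3 52 in neutrophil genes (0.216%).

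The change from low to high differed between MPP2 and MPP3 for 21 of the genes reported here from the lists and the naming rules. The test was edgeR's test of the difference at an adjusted p of 0.05, with the MPP2 side known beforehand. Cd34, named outside those rules, also differed, as given above. Several of these calls were lost in most fits that left out 1 library, as also given above. The log2 difference was higher in MPP2 for Pf4 (4.24), Vwf (4.20) and Plxnc1 (1.84). Among lymphoid genes it was -12.31 for Il7r, -4.39 for Flt3, -3.25 for Notch1, -2.26 for Satb1, -1.96 for Lsp1, -1.48 for Tespa1 and -1.26 for Cd27. Among myeloid genes it was -7.51 for Gfi1, -3.28 for Ccl9, -3.23 for Hk3, -2.36 for Padi4, -1.90 for Fcer1g, -1.82 for Rab44 and -1.46 for Spi1. The others were Gpr18 (-10.29), Mx1 (-8.64), Klrd1 (-7.95) and Sytl1 (-5.32). Rab44 was not lower in high-numbered MPP2, with means of 34.8 CPM in low- and 35.7 CPM in high-numbered libraries. Its MPP3 means were 22.6 and 77.0 CPM. Fitted differences of genes at 0 counts in a set, Il7r and Klrd1 among them, depend on the prior count and are no bounds. The same holds for Sytl1, at or near 0 counts in the high-numbered KO MPP2 libraries.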

How the results depend on the processing

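No gene refitted under the alternatives changed direction in the 6 comparisons: of 987 values for the 47 called genes in MPP2 high against low, 888 kept direction and call and 99 direction alone, and of 300 values for 15 genes in MPP3, 203 and 97. For the difference between the gates, 250 of 405 values for 15 genes kept direction and call and 155 direction alone. Counts of calls moved far more. Without the low-count filter there were 2412 calls in MPP2 and 1013 in MPP3, 757 for their difference, 1039 and 2571 for MPP2 against MPP3 in the low- and high-numbered sets, 285, 200 and 188 for genotype in low, in high and their difference, and 2198 for LT-HSC against MPP3. DESeq2 gave 2485, 1193, 507, 1051, 2782, 26, 140 and 45 for the first 8. Limma voom gave 55 in MPP3, 7 and 2754 for the gates in low and high, and 0 for genotype in high. With all 21 libraries in the fit MPP3 had 139, the gates in low 353 and genotype in high 2. Leaving out both genotypes of numbers 2, 3 and 4 gave 2158, 354 and 121 in MPP2, 77, 0 and 1 in MPP3, and for the difference 0 and 22 without numbers 2 and 4. Without the 3 rich libraries the difference had 36 calls, the gates in low 4, and genotype 1 in low and 0 in high. Leaving out 1 library gave 404 to 1872 calls in MPP2, 4 to 2928 in MPP3, 15 to 723 for the difference, 5 to 2821 and 1015 to 2223 for the gates in low and high, 0 to 2 and 0 to 5 for genotype, 0 to 2 for its difference and 645 to 1432 for LT-HSC against MPP3. The cause was not tested. Library measures ranged from -3486 to -2477 genes in MPP2 and -4819 to -2550 in MPP3, and from -2.40 to -1.43 and -5.01 to -1.74 percentage points of mitochondrial counts. The MPP3 log2 differences ranged from -0.10 to 0.19 for Flt3, -0.012 to 0.34 for Dntt, 0.94 to 2.48 for Gata1 and 0.31 to 1.53 for Epor. With the replicate block, MPP2 against MPP3 had 34 calls in low and 1386 in high, their difference 83, genotype in high 0, and LT-HSC against MPP3 873. For high against low itself no paired analysis was possible because each number lies in 1 set. The fits without number 2 hold females alone, since number 2 holds every male.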

Other observations

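Ptprc, which encodes the leucocyte antigen CD45, was lower in all 4 high-numbered MPP2 libraries (180.3, 193, 145 and 139 CPM in WT 163, WT 208, KO 166 and KO 211) than in the low-numbered ones (409, 433, 309 and 282 CPM in WT 53, WT 60, KO 56 and KO 63), with a log2 fold change of -1.15 ± 0.13. In MPP3 it was at 454 to 589 CPM in low-numbered and 209.9 to 397 CPM in high-numbered libraries, also without overlap (-0.81 ± 0.13, edgeR adjusted p = 0.0289). It was named after its values were seen.

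In MPP3 without KO 55, 7 of 19 genes of haem synthesis and iron handling were called higher and 1 lower, and 8 of 37 cell cycle genes were called higher (Bub1, Ccnb2, Ccne1, Cdc20, Cdk1, Kif20a, Mcm2 and Mcm7). In that fit 10.7% of all genes were called higher and 5.3% lower, and with all libraries 0 of each list were called.

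Across genes, the correlation of log2 (CPM + 1) between 2 MPP2 libraries had a median of 0.947 within the low-numbered set, 0.967 within the high-numbered set and 0.935 between the sets. In MPP3 the same medians were 0.943, 0.972 and 0.954. Genes are not independent replicates, and these values describe the libraries only.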
